A study of Mus musculus with 7 samples.

Results

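The 8 genes described here carry ammonia disposal in the liver: the 5 enzymes of the urea cycle (Cps1, Otc, Ass1, Asl and Arg1), the enzyme that makes the activator of Cps1 (Nags), the mitochondrial ornithine carrier (Slc25a15) and liver-type glutaminase (Gls2). They were chosen by name and are 8 of the 32285 genes listed in each of 7 single-cell matrices of mouse liver. The study generated ABC-Myc mice on a C57BL/6J background, in which Cre driven by the albumin promoter, and so active in hepatocytes, releases human MYC under the CAG promoter, and it profiled tumors of such mice beside healthy livers. Each library, of 1 mouse as far as the labels go, holds dissociated liver cells captured with 3′ chemistry. Tumors, as the study names them, are NEJ634, NEJ687, NEJ723 and NEJ709, and the age of these animals is not given in the sources used here. The deposited labels, however, describe all 7 libraries as a hepatoblastoma mouse model and set none apart as healthy, and the description of the library titled NEJ709 carries the name NEJ634, so NEJ709 is called by its title. The libraries NEJ638, NEJ654 and NEJ677 were therefore set beside the others one library at a time, with no group mean and no p-value, and each ratio has no replicate check.

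The urea cycle turns ammonia and bicarbonate into urea. Its first steps, Cps1 and Otc, lie in the mitochondrial matrix and the later ones, Ass1, Asl and Arg1, in the cytosol, so ornithine and citrulline must cross the inner membrane through Slc25a15. In the liver lobule the cycle and Gls2, which frees ammonia from glutamine, are known as periportal, while glutamine synthetase (Glul) around the central vein takes up the ammonia that is left.

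In the GENCODE M21 annotation of GRCm38, all 8 genes were protein coding. Cps1 lies on chromosome 1 from 67123026 to 67231259, Otc on chromosome X from 10252305 to 10321024, Ass1 on chromosome 2 from 31470207 to 31520672 and Nags on chromosome 11 from 102145513 to 102149477, all on the plus strand. Gls2 lies on the plus strand of chromosome 10 from 128194457 to 128210004, and Arg1 on the minus strand of the same chromosome from 24915221 to 24927484. Asl (chromosome 5, 130011258 to 130029247) and Slc25a15 (chromosome 8, 22375551 to 22398597) are on the minus strand. The build behind the deposited counts is not given in the sources used here, and the counts were read by Ensembl identifier. RefSeq promoter windows (GRCm38.p6) were held for 4 of the 8 genes, and 3 of these are shown because Otc, Nags and Ass1 had the widest ranges between libraries among them. The lines give the bases before the RefSeq start, on the plus strand, with any match to a searched motif in capitals.
Otc, chrX:10252055-10252304: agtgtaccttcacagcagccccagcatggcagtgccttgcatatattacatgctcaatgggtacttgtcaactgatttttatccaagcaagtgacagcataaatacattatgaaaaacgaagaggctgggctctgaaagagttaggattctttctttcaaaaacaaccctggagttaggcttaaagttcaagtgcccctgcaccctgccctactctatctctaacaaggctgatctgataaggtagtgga
Nags, chr11:102145263-102145512: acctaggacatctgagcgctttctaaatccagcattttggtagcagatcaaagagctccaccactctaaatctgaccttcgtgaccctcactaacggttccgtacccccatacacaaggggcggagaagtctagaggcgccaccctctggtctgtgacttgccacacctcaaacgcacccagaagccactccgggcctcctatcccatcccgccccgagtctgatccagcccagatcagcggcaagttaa
Ass1, chr2:31470020-31470206: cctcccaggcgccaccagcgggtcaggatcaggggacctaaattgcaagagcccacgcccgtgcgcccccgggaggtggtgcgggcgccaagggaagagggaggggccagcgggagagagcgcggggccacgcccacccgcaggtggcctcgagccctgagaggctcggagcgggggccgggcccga
Ass1, chr2:31470222-31470251: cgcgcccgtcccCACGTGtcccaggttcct

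The motifs searched on both strands were CACGTG (the E-box that MYC binds), TTGCGCAA and its looser form TTGCNNAA (the C/EBP palindrome, so that the first is contained in the second), and CAAAGTCCA (bound by HNF4A). Among 32851 promoters of 250 bases, 6.02% held CACGTG, 9.56% TTGCNNAA, 0.384% CAAAGTCCA and 0.164% TTGCGCAA. The Ass1 window held 1 CACGTG, 36 bases before the RefSeq start, inside the last 63 bases of the window that GENCODE counts as part of the gene. No other match stood in the 3 windows. G and C made up 75.6% of the Ass1 window, 55.6% of the Nags window and 43.6% of the Otc window, against a median of 52.4% over all promoters.

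Cells were called anew from the unfiltered matrices, which held between 40214395 and 132485391 UMIs (unique molecular identifiers, each counting 1 captured transcript) per library. After filters and removal of likely doublets, 72532 cells were clustered with the 8 genes and 38 related genes left out, and clusters were named from fixed marker genes. Hepatocyte-lineage-like cells numbered 5435 in NEJ634, 294 in NEJ638, 304 in NEJ654, 108 in NEJ677 and 233 in NEJ687. NEJ709 held 19 and NEJ723 held 7, below the 20 cells asked of a pool, so their values are printed as few-cell values and enter no ratio. Of the 72532 cells analysed, 6400 were hepatocyte-lineage-like.

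The class held its defining genes in each of the 5 libraries, but at unequal levels. Levels are given as CPM, the UMIs of a gene per 1000000 UMIs of the summed cells, with exact 95% Poisson intervals that cover counting error only. Alb, the albumin gene, stood at 41847 CPM in NEJ638, 75784 in NEJ654 and 83048 in NEJ677, against 4015 in NEJ634 and 3217 in NEJ687. Afp, the fetal alpha-fetoprotein, ran the other way, at 2200 CPM in NEJ634 and 1574 in NEJ687 while NEJ638, NEJ654 and NEJ677 did not exceed 9.17. The name therefore covers Alb-high, Afp-low cells in 3 libraries and Afp-high cells in 2. It also rests on different clusters: 1 cluster (cluster 26) held 294, 302 and 107 of these cells in NEJ638, NEJ654 and NEJ677, while another (cluster 2) held 5247 in NEJ634 and 228 in NEJ687. Ptprc, which marks white blood cells, was at 74.4 CPM in the pool of NEJ634 against 3.56 to 14.0 CPM in the other 4. Of 64 markers of white blood cell types, 61 had over 3 UMIs in NEJ634, with 28 at 10 CPM or more, and their sum was 9695 CPM. In the other 4 libraries 11 to 29 markers had over 3 UMIs, 4 to 11 stood at 10 CPM or more, and the sums were 271 to 1049 CPM. The count over 3 UMIs also grows with the size of the pool. The part of such RNA in the member levels of NEJ634 was not tested.

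Some libraries shared cell barcodes. Between NEJ654 and NEJ677, 187 barcodes were called as cells in both, the most of any of the 21 pairs of libraries. One unnamed cluster (cluster 34) consisted largely of such barcodes: 138 of its 139 cells in NEJ654 were also called in NEJ677, and 74 of its 75 cells in NEJ687 were called in each of them. In all 3 libraries that cluster showed nearly the same profile, with Afp at 777 CPM in NEJ654, 715 in NEJ677 and 709 in NEJ687. It lies outside the hepatocyte-lineage-like class. Leaving out every shared barcode changed none of the 40 member levels beyond its interval.

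All 8 genes were lower in NEJ634 and NEJ687 than in NEJ638, NEJ654 and NEJ677, although for Ass1 the nearest pair could not be separated. Their summed level was 8059 CPM in NEJ638 (interval 7948 to 8171), 7454 in NEJ654 (7306 to 7604), 5838 in NEJ677 (5660 to 6021), 3853 in NEJ687 (3794 to 3913) and 2985 in NEJ634 (2962 to 3008). No neighbours in that order had overlapping intervals, and the highest library exceeded the lowest 2.70-fold. The few cells of NEJ709 and NEJ723 held 3369 CPM (3206 to 3538) and 1949 CPM (1602 to 2349).

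**Figure D1:**
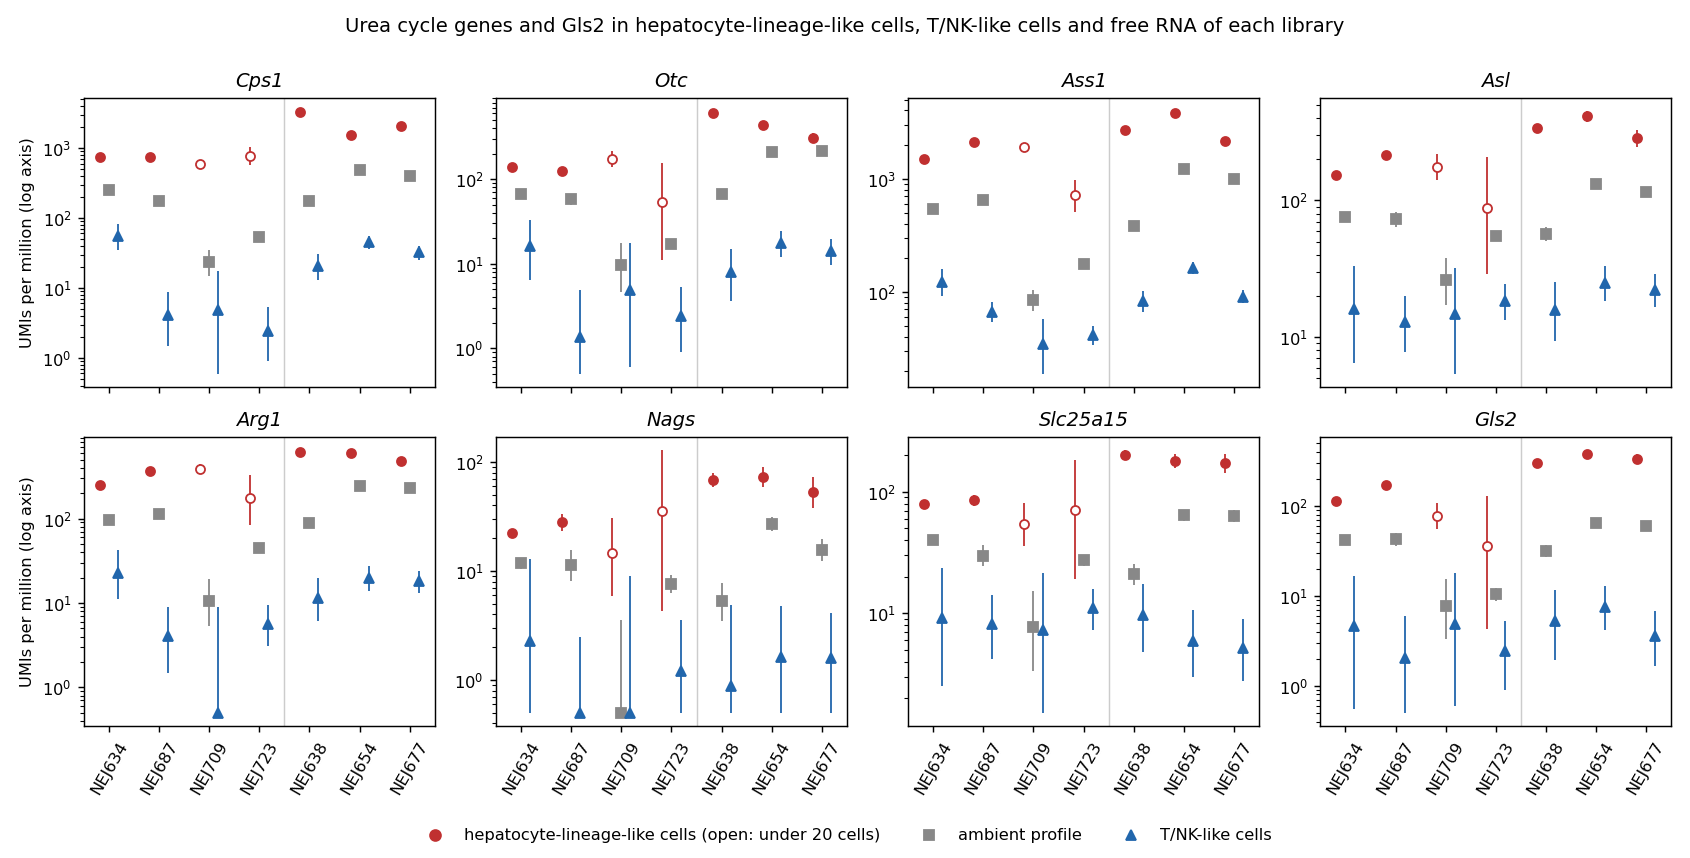
CPM of each gene (log axis, 1 panel per gene, scales differ) in hepatocyte-lineage-like cells (red circles, open where under 20 cells), in the ambient profile of near-empty barcodes (grey squares) and in T/NK-like cells (blue triangles) of the 7 libraries, with exact 95% Poisson intervals. Values of 0 are drawn at 0.5. In the 5 libraries with enough cells, red lies above blue in all 40 comparisons.

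Cps1, carbamoyl phosphate synthetase, which commits ammonia to the cycle, stood at 3269 CPM in NEJ638 (3198 to 3340), 2072 in NEJ677 (1966 to 2182) and 1558 in NEJ654 (1490 to 1627). It stood at 751 CPM in both NEJ687 (725 to 778) and NEJ634 (739 to 762). The last 2 libraries could not be told apart, and all 3 others lay above them, with a 4.35-fold span from highest to lowest (4.24 to 4.47). Few-cell values were 587 CPM in NEJ709 and 780 in NEJ723, from 279 and 44 UMIs.

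Otc, ornithine transcarbamylase, which joins carbamoyl phosphate to ornithine to give citrulline, had the widest span of the 8 at 4.77-fold (4.32 to 5.27). Its level was 603 CPM in NEJ638, 437 in NEJ654 and 309 in NEJ677, but 140 in NEJ634 and 126 in NEJ687. Again NEJ634 and NEJ687 overlapped, and the other 3 were separate from each other and from them. In NEJ709 Otc stood at 175 CPM and in NEJ723 at 53.2 CPM, the latter from 3 UMIs.

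The cytosolic enzymes spanned less. Ass1, argininosuccinate synthetase, was at 3823 CPM in NEJ654, 2668 in NEJ638, 2131 in NEJ677, 2116 in NEJ687 and 1475 in NEJ634. The intervals of NEJ677 (2024 to 2243) and NEJ687 (2072 to 2161) overlapped, so for this gene 1 library of each side was level. Asl, argininosuccinate lyase, was at 411 CPM in NEJ654, 338 in NEJ638, 286 in NEJ677, 216 in NEJ687 and 153 in NEJ634. Arg1, the arginase that releases urea, was at 611 CPM in NEJ638, 593 in NEJ654, 479 in NEJ677, 361 in NEJ687 and 252 in NEJ634. For both Asl and Arg1 the order placed NEJ687 and NEJ634 last, each apart from its neighbours, and only the 2 neighbours NEJ638 and NEJ677 (Asl) or NEJ638 and NEJ654 (Arg1) overlapped.

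Nags, N-acetylglutamate synthase, was counted from few UMIs, 37 in NEJ677 and 481 in NEJ634. It was at 72.9 CPM in NEJ654, 69.0 in NEJ638, 53.4 in NEJ677, 28.0 in NEJ687 and 22.4 in NEJ634. The intervals of NEJ687 and NEJ634 overlapped, as did those of the neighbouring libraries among the other 3. Slc25a15 was at 201 CPM in NEJ638, 180.0 in NEJ654, 172 in NEJ677, 85.1 in NEJ687 and 79.7 in NEJ634. For the carrier too, overlaps stood only within the higher 3 and within the lower 2 libraries. Gls2 was at 379 CPM in NEJ654, 335 in NEJ677, 300.3 in NEJ638, 169 in NEJ687 and 112 in NEJ634. The higher 3 again overlapped in turn, while NEJ687 and NEJ634 were apart.

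The make-up of the 8-gene pool also differed between libraries, and the shares of Ass1 and Cps1 did not follow those sides. Ass1 and Cps1 together held most of the UMIs. Ass1 took 54.9% of them in NEJ687, 51.3% in NEJ654, 49.4% in NEJ634, 36.5% in NEJ677 and 33.1% in NEJ638, while Cps1 took 40.6% in NEJ638, 35.5% in NEJ677, 25.2% in NEJ634, 20.9% in NEJ654 and 19.5% in NEJ687. These are shares of 3′ UMIs, which are not scaled for length, and they do not rank the genes by expression. The paper reports that intronic reads were counted as well. NEJ654 thus resembled NEJ634 and NEJ687 in the shares of these genes, but not in its summed level. The share of Otc was 7.48%, 5.86% and 5.29% in NEJ638, NEJ654 and NEJ677 against 4.68% and 3.28% in NEJ634 and NEJ687, with overlapping exact binomial intervals for NEJ677 (4.62 to 6.03) and NEJ634 (4.52 to 4.85). Nags was likewise at 0.856%, 0.978% and 0.915% against 0.749% and 0.728%, and Arg1 the other way at 7.58%, 7.96% and 8.21% against 8.45% and 9.37%. For both, the intervals of some libraries overlapped across the sides, and the Nags shares rest on as few as 37 UMIs.

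Ratios of 1 library to 1 library were taken where both held at least 100 hepatocyte-lineage-like cells, which left 6 pairs, and over all genes with a mean of at least 10 CPM in the pair. NEJ634 and NEJ687 each enter 3 pairs and share their partners, so the pairs are not independent. Against NEJ638, NEJ634 was at least 2-fold lower for 7 of the 8 members, where 16.2% of 7829 genes were that much lower. Against NEJ654 it was lower for all 8 (12.8% of 7769 genes) and against NEJ677 for 5 (15.4% of 7592). NEJ687 was at least 2-fold lower for 4 members against NEJ638 (21.3% of 7510 genes), for 5 against NEJ654 (16.6% of 7450) and for 3 against NEJ677 (18.8% of 7255). In each pair the share of members was above the share of all genes, though with 8 members the excess was not tested and is least sure at the lower counts.

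No member was at least 2-fold higher in any pair. The background in that direction was 21.4%, 28.9% and 38.6% for NEJ634 against NEJ638, NEJ654 and NEJ677, and 20.3%, 26.0% and 36.0% for NEJ687 against the same libraries. The median log2 ratio of all genes was above 0 in each pair, from 0.05 (NEJ687 against NEJ638) to 0.61 (NEJ634 against NEJ677), while that of the members lay between -1.40 and -0.96. Relative to the median gene the members were thus lower still.

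Cps1, Otc and Slc25a15 were at least 2-fold lower in all 6 pairs, which held for 8.12% of the 6660 genes compared in all of them. Cps1 was 2.07-fold to 4.35-fold lower and Otc 2.21-fold to 4.77-fold. Slc25a15 was the most even, at 2.02-fold to 2.52-fold, and its smallest ratio sits at the edge of the 2-fold line. Nags passed in 5 pairs, Gls2 in 4, Asl and Arg1 in 2 each and Ass1 in 1. The matrix enzymes and the carrier therefore passed in more pairs than the cytosolic enzymes, a difference that was not tested.

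**Figure D2:**
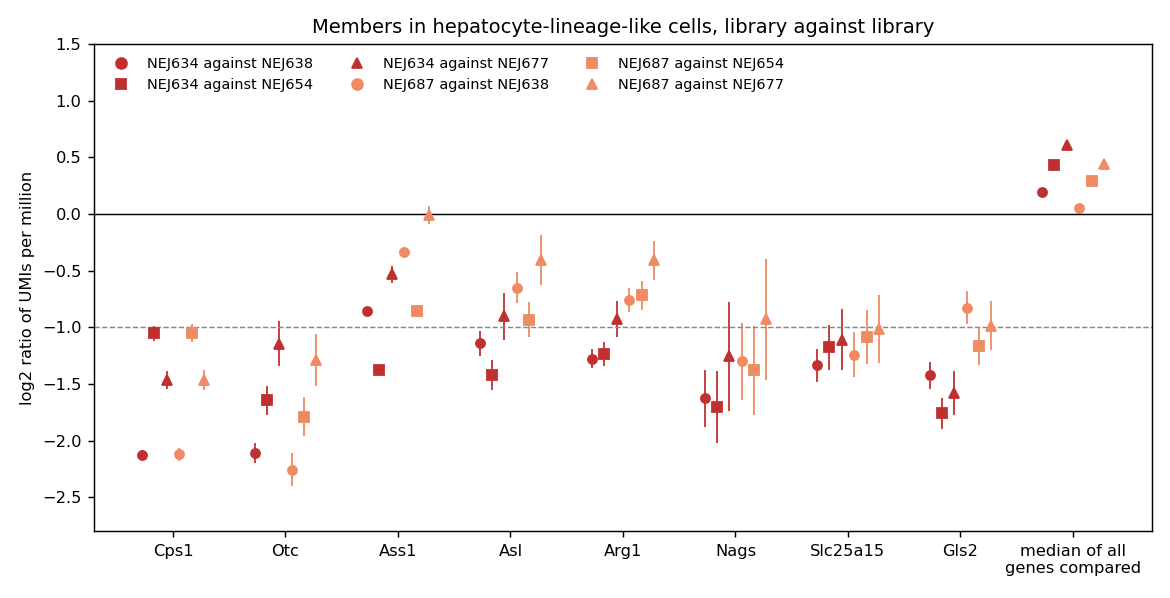
Log2 ratio of CPM in hepatocyte-lineage-like cells for each gene in the 6 library pairs, with 95% intervals from counting error, and at the right the median of all genes compared. The dashed line marks a 2-fold lower level. All points of Cps1, Otc and Slc25a15 lie on or below it, those of Ass1 range from -1.37 to -0.01, and the medians of all genes lie above 0.

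These counts depended on which cells were called hepatocyte-lineage-like, in NEJ634 as well as in NEJ654 and NEJ677. With each library clustered alone, the class held 470 cells in NEJ654 and 211 in NEJ677, with Afp at 239 and 332 CPM. In NEJ634 it held 1265 cells in place of 5435. Its summed level was 3477 CPM in place of 2985, and Cps1 stood at 952 CPM in place of 751. Against NEJ638, NEJ634 was at least 2-fold lower for 6 of 8 members in place of 7 (15% of all genes). NEJ634 was then at least 2-fold lower for 1 of 8 members against NEJ654, where 10.1% of all genes were, and for 0 of 8 against NEJ677 (9.93% of all genes). For NEJ687 these counts were 2 (13.4%) and 0 (13.8%). With 8 members, counts of 0 against NEJ677, and of 1 and 2 against NEJ654, cannot be told apart from these shares. Against NEJ677 the median log2 ratio of the members was -0.26 for NEJ634 and -0.32 for NEJ687. That of all genes was 0.53 and 0.47. The summed level so clustered was 5540 CPM in NEJ654, 3924 in NEJ677 (3812 to 4039) and 3759 in NEJ687 (3702 to 3816). The intervals of NEJ677 and NEJ687 thus overlapped. Ass1 of NEJ687 stood above that of NEJ677 (2066 against 1618 CPM), while the intervals of Arg1, Asl, Nags and Slc25a15 overlapped between these libraries. Without the shared barcodes, an alternative added after the data were seen, the class of NEJ654 held 315 cells with a sum of 7385 CPM and Afp at 2.40 CPM, and NEJ634 was at least 2-fold lower for 5 members, against 12.5% of all genes. NEJ677 then held only 63 such cells and entered no pair, with its sum at 6154 CPM.

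T/NK-like cells, which should lack the cycle, gave the background of free RNA. Each member was above the interval of T/NK-like cells in all 5 libraries, 40 of 40 comparisons. Of all genes with a mean of at least 10 CPM in the 2 classes, 27.4% were above in NEJ634, 34.8% in NEJ638, 27.1% in NEJ654, 25.1% in NEJ677 and 34.2% in NEJ687. The sum of the 8 genes there was 154 CPM in NEJ638, 284 in NEJ654, 187 in NEJ677, 98.5 in NEJ687 and 248 in NEJ634. The ambient profile, taken from near-empty barcodes, stood higher, at 829 CPM in NEJ638, 2441 in NEJ654, 2070 in NEJ677, 1146 in NEJ687 and 1122 in NEJ634. Free RNA was estimated at 38.7% of the UMIs in the hepatocyte-lineage-like cells of NEJ634, 22.8% in NEJ654, 13.5% in NEJ638, 8.67% in NEJ677 and 5.14% in NEJ687. The estimate rests on markers of other classes, so RNA of other cells counted in a pool would raise it. In T/NK-like cells of NEJ634 it was 14.4%. With the ambient profile subtracted, NEJ634 was at least 2-fold lower for 5 members against NEJ638 in place of 7 (18.8% of all genes), 6 against NEJ654 in place of 8 (14.4%) and 2 against NEJ677 in place of 5 (16.9%). NEJ687 went the other way, to 7 against NEJ654 in place of 5 (17.4%) and 4 against NEJ677 in place of 3 (19.7%), and stayed at 4 against NEJ638 (23.5%). The span of the sum went from 1.43 to 1.17 on the log2 scale.

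Per cell, depth had to be levelled first. Each cell was thinned to 500 UMIs, which left out none of these cells. At least 1 UMI of the 8 genes was then found in 95.6% of hepatocyte-lineage-like cells of NEJ638 (exact interval 92.6 to 97.6), 87.8% in NEJ654 (83.6 to 91.3), 80.6% in NEJ677 (71.8 to 87.5), 73.4% in NEJ687 (67.2 to 78.9) and 68.5% in NEJ634 (67.2 to 69.7). Before thinning the shares were 91.7% or more, with median depths from 1926.5 to 14772 UMIs. In T/NK-like cells of the same 5 libraries the thinned shares were 3.99% to 15.2%, at median depths from 1638.5 to 4478 UMIs. Cps1 alone was found in 74.8% of thinned cells of NEJ638, 47.2% of NEJ677, 41.1% of NEJ654, 25.9% of NEJ634 and 24.0% of NEJ687. The order of the shares of any member followed that of the summed levels, and most cells of each library held a member even at this depth.

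Inside NEJ634 the members varied between clusters. Its main cluster (5247 cells, Alb 3777 CPM) held the members at 2918 CPM in sum and Cps1 at 733 CPM. A small cluster of 132 cells (cluster 39) held Alb at 8867 CPM, the members at 4793 CPM and Cps1 at 1294 CPM, and another of 53 cells with Alb at 6050 CPM held the members at 2093 CPM and Cps1 at 469.7 CPM. The level of Alb thus did not order the clusters by their members. Cluster 39 stayed below NEJ677 in its sum, and held Afp at 1367 CPM. Gene by gene, only Cps1 and Gls2 lay apart from NEJ677, at 1294 against 2072 CPM and 162 against 335 CPM. The intervals of the other members overlapped, with Ass1 at 2202 against 2131 CPM. Another 2 clusters, whose highest scores were for hepatoblast or hepatocyte markers but which missed the naming rule, held the members at 2310 CPM (495 cells) and 2203 CPM (415 cells). The latter had Mpo, Elane, Ctsg and Prtn3, genes of granulocyte precursors, among its 10 leading genes, and their part in its level was not tested.

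A different profile appeared in cells of NEJ654 and NEJ677 that stayed unnamed (cluster 22, 234 and 793 cells). Their depth was low, at medians of 896.5 and 1641 UMIs, and Alb stood at 4484 and 3666 CPM, far below the named class of the same libraries. The members were nevertheless high, at 12278 CPM in NEJ654 and 7207 CPM in NEJ677. They did not move together: Otc was at 1139 and 1001 CPM and Ass1 at 8148 and 4324 CPM, both above the named class, while Cps1 was at 606 and 313 CPM, below it. The leading genes of the cluster by ratio were Fabp1, a fatty acid binding protein, Akr1c6 and Car3. With a marker gate per cell in place of clusters, Cps1 stood at 889 CPM in NEJ654 and 621 CPM in NEJ677 (596 to 648). The latter was below the 694 CPM of NEJ634 (684 to 704), so that the order of NEJ677 and NEJ634 for Cps1 turned. It was also below the 665 CPM of NEJ687 (642 to 688), but with overlapping intervals.

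The libraries NEJ709 and NEJ723 had few cells of the named class, so other cuts were read. In NEJ723 an unnamed cluster (cluster 36) of 209 cells with a median of 48907 UMIs, which scored highest for cholangiocyte markers, held Alb at 2148 CPM, Afp at 2280 CPM and Epcam, an epithelial adhesion gene, at 209.5 CPM. Of these cells, 28 had a barcode also called in NEJ709. The members were at 581 CPM in sum there (567 to 595), with Cps1 at 51.1 CPM and Otc at 8.54 CPM. In NEJ634 the 55 cells of the same cluster held the members at 967 CPM and Afp at 11527 CPM. The marker gate gave a sum of 585 CPM in 2312 cells of NEJ723. In NEJ709 it took 7974 of the 13913 cells, with Alb at 594 CPM and the members at 259.9 CPM, so that value is not one of the lineage alone. Clustering each library alone gave 570 CPM in 1225 cells of NEJ723, with Alb at 1152 CPM, and 1450 CPM in 151 cells of NEJ709, the latter with Alb at 2330 CPM. NEJ723 was thus below NEJ634 by each of these routes, although its 7 named cells stood higher than they did at 1949 CPM, while the value of NEJ709 depended on the route. The routes may share cells and are not separate support. The ambient profile of NEJ723 held the members at 392 CPM, with Cps1 at 53.0 and Otc at 17.0 CPM. Its cells clustered alone held Cps1 at 49.0 and Otc at 18.0 CPM. The part of free RNA in these values was not tested.

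The position of cells along the lobule was read from 5 periportal and 7 pericentral markers that include no member. In NEJ638, NEJ654 and NEJ677, hepatocyte-lineage-like cells with at least 5 such UMIs were split at the library's median share of periportal UMIs. The periportal side of NEJ638 (141 cells each) held the members at 11073 CPM against 5596 CPM on the other side, a log2 ratio of 0.98 with an SE of 0.02 from counting. In NEJ677 (43 cells each) the values were 7416 and 4083 CPM, and in NEJ654 (91 cells each) 8878 and 6794 CPM. The sum was thus higher on the periportal side of all 3 libraries, and the ratio was smallest in NEJ654. Alb was also higher there, at log2 ratios of 0.51, 0.19 and 0.69 in NEJ638, NEJ654 and NEJ677, and its part in the ratios was not tested.

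Of all genes with a mean of at least 10 CPM over both sides, the markers of the split left out, 3.98% had an interval above the other side on the periportal side of NEJ638, 2.01% in NEJ654 and 2.12% in NEJ677. Gls2 had the steepest difference, at 539 against 105 CPM in NEJ638, 474 against 164 in NEJ677 and 470 against 312 in NEJ654. Ass1, Cps1 and Arg1 were also apart in all 3 libraries, with Ass1 at log2 ratios of 1.09, 1.14 and 0.47 in NEJ638, NEJ677 and NEJ654. Otc was apart in NEJ638 and NEJ677, Asl in NEJ638 and NEJ654, and Slc25a15 in NEJ638 alone. Nags, at log2 ratios from -0.38 to 0.17, was apart in none. At the other end, Glul stood at 494 CPM on the pericentral side of NEJ638 against 79.3 on the periportal side, and at 500 against 15.8 CPM in NEJ677. In NEJ654 Glul was low on both sides, at 22.4 and 20.6 CPM. Oat, ornithine aminotransferase, was pericentral in all 3, for instance at 545 against 36.5 CPM in NEJ638.

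**Figure D3:**
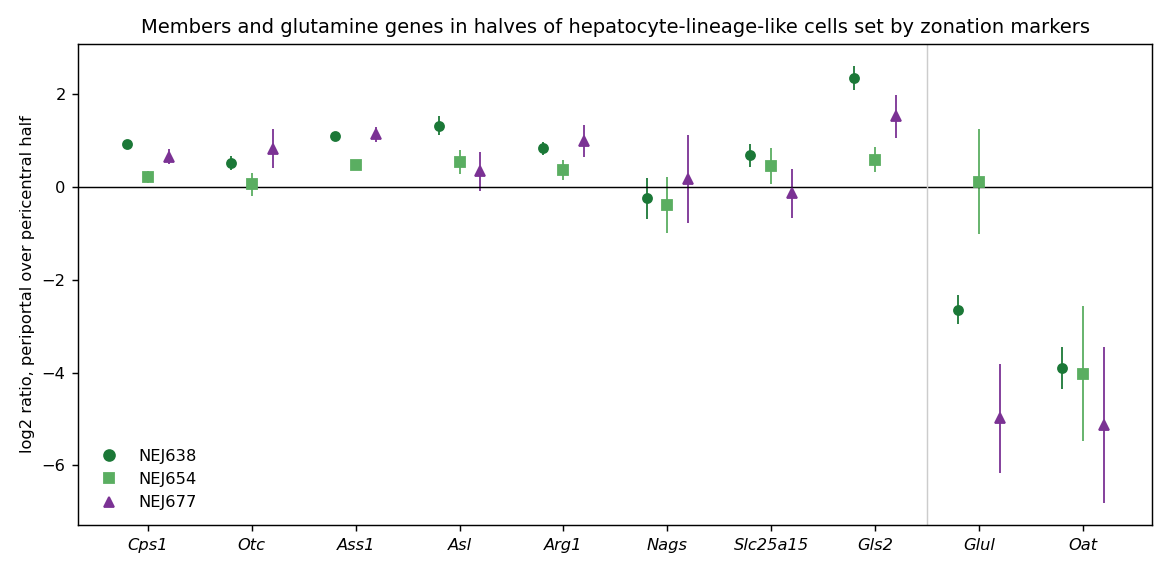
Log2 ratio of CPM, periportal over pericentral side, for each gene in hepatocyte-lineage-like cells of NEJ638, NEJ654 and NEJ677, with 95% intervals from counting error. Gls2 lies highest at 2.35 in NEJ638, Nags spans 0 in all 3 libraries, and Glul and Oat lie below 0 except for Glul of NEJ654.

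NEJ634 and NEJ687 could not be split in this way. Of their cells with at least 5 zonation UMIs, 606 of 935 and 120 of 150 had no pericentral UMI at all, against 4 of 283 in NEJ638. Pericentral markers were at 90.3 CPM in NEJ634 and 58.0 CPM in NEJ687, against 2173 to 5716 CPM in the other 3 libraries, and periportal markers at 709 and 806 CPM against 2846 to 3279 CPM. Both marker sets were thus lower there, the pericentral one by more.

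A list of 38 genes of nitrogen, glutamine and arginine handling shows what lay around the cycle in the same cells, and 26 of them were compared in all 6 pairs. The list was chosen with earlier results of these data known, so its shares describe these genes and are no separate support. In NEJ634 and NEJ687, 5 of these 26 were at least 2-fold lower in every pair, where 8.12% of the 6660 genes compared in all pairs were. In single pairs the listed share was above that of all genes: against NEJ638, NEJ654 and NEJ677, NEJ634 was at least 2-fold lower for 11 of 30, 6 of 28 and 8 of 29 listed genes, and NEJ687 for 13 of 29, 7 of 28 and 10 of 28. Car5a, the mitochondrial carbonic anhydrase that supplies bicarbonate to Cps1, was at 28.3, 71.4 and 46.2 CPM in NEJ638, NEJ654 and NEJ677 but at 5.77 and 4.04 CPM in NEJ634 and NEJ687, which is 4.91-fold to 17.7-fold. Slc38a3, a glutamine transporter, was 4.47-fold to 12.3-fold lower and Slc7a2, a carrier of cationic amino acids, 3.72-fold to 7.19-fold. Gpt, alanine aminotransferase, and Prodh, proline dehydrogenase, completed the 5.

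Another 7 of the 26 were at least 2-fold higher in every pair, among them Asns, Ctps, Cad and Odc1, where 12.2% of all genes compared were. In single pairs, in the same order, NEJ634 was higher for 8 of 30, 11 of 28 and 10 of 29 listed genes and NEJ687 for 8 of 29, 13 of 28 and 9 of 28. Of all genes, 21.4%, 28.9% and 38.6% were that much higher for NEJ634, and 20.3%, 26.0% and 36.0% for NEJ687. Against NEJ677 the list thus did not exceed the background. Cad, which starts pyrimidine synthesis with its own carbamoyl phosphate synthetase, was at 52.0 CPM in NEJ634 and 87.4 in NEJ687 against 4.39, 6.21 and 8.66 CPM in NEJ638, NEJ654 and NEJ677. Asns, asparagine synthetase, had 2024 UMIs in NEJ634 and 510 in NEJ687 against 4, 2 and 0 UMIs in the same 3 libraries. Odc1, ornithine decarboxylase, which draws ornithine into polyamines, was 4.58-fold to 11.1-fold higher. T/NK-like cells also held Odc1 at 220 CPM in NEJ634 and 304 in NEJ687. In NEJ638, NEJ654 and NEJ677 they held it at 84.8, 87.4 and 66.7 CPM. Cad in those cells was at 29.8 and 29.2 CPM against 12.4, 9.77 and 13.7 CPM. The part of such a background in the ratios was not tested.

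Not every neighbour was past 2-fold in each pair. Glud1, glutamate dehydrogenase, was near level, at log2 ratios from -0.46 to -0.19. Got2, the mitochondrial aspartate aminotransferase, was higher in all 6 pairs but past 2-fold in 1, at 0.63 to 1.06. Got1, its cytosolic form, was lower in all 6 and past 2-fold in 4, and Ppat, which uses glutamine for purine synthesis, was higher in all 6 and past 2-fold in 4. Of 4 pairs compared, Slc1a2, a glutamate transporter, was at least 2-fold lower in each and Slc1a5, a glutamine transporter, at least 2-fold higher in each. Glul ranged from -0.93 to 2.96, and NEJ654 held it at 27.9 CPM against 161 to 306 CPM in the other 4 libraries. Arg2, the mitochondrial arginase, was at most 9.95 CPM in hepatocyte-lineage-like cells, and 7 genes of the list, among them Arg2 and Nos2, were too low to compare in any pair.

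**Figure D4:**
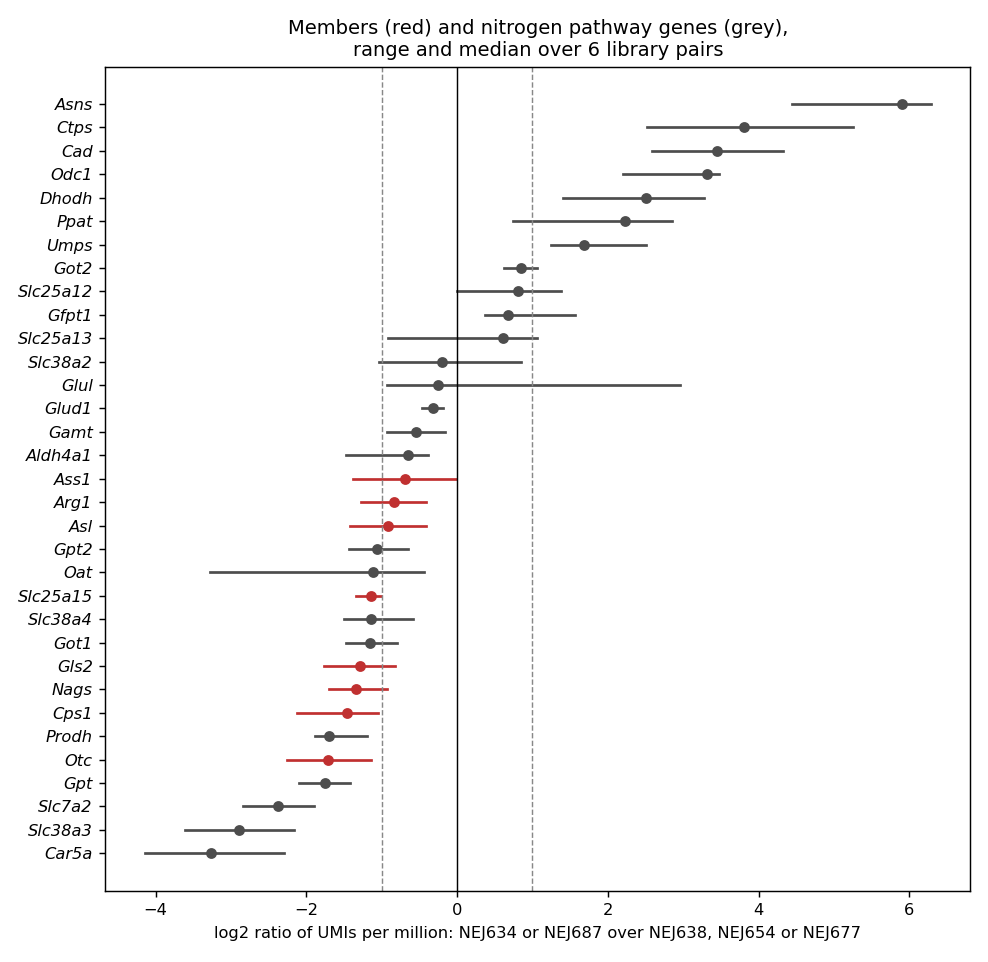
Range and median of the log2 ratio over the 6 library pairs for the 8 members (red) and 25 of the 26 listed genes compared in all pairs (grey). Dashed lines mark 2-fold. Members lie left of 0, between Car5a at the bottom and the pyrimidine and asparagine genes at the top; ratios of Asns, Ctps and Dhodh rest on 4 or fewer UMIs in some of the partner libraries, and 0 UMIs were set to 3.

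Beyond the hepatocyte lineage, 11 other classes were read in 55 pools of a library and class. Of 440 values, 26 were above T/NK-like cells, where 20.5% of the values of all genes with a mean of at least 10 CPM were, and 5 of these also above the ambient profile of the library. No share of all genes above both limits is given, so whether 5 is many or few is not known. Another 4 pools of a cluster that had taken a pancreas name were left out, since they held none of that name's markers above 3 UMIs. Of the 5 values, 4 came from a single pool, the 349 cholangiocyte-like cells of NEJ634, with Cps1 at 384 CPM, Otc at 99.3, Ass1 at 734 and Arg1 at 170 CPM. Those cells also held Alb at 3245 CPM and Afp at 2706 CPM, near the hepatocyte-lineage-like cells of that library, beside Spp1 at 2019 CPM and Epcam at 147 CPM. The part of lineage RNA in that pool was not tested.

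The remaining value was Arg1 in macrophage or monocyte-like cells of NEJ723, at 272 CPM against a median of 23.1 CPM over the 7 libraries. It rested on few cells. Of the 1117 such cells, 18 held at least 10 Arg1 UMIs each, up to 366 in 1 cell, and together 96.3% of the 1782 UMIs. Those 18 cells held 0 UMIs of Cps1 and 5 each of Ass1 and Alb, while Spp1 was at 17812 CPM and the macrophage markers C1qa and Csf1r at 1748 and 183 CPM. Of the other enzymes of the cycle, Cps1 and Ass1 were the ones read in these cells. In the other macrophage or monocyte-like cells of NEJ723, Arg1 was at 10.6 CPM, within the 4.78 to 33.2 CPM of the other libraries. Of the remaining 6 libraries only NEJ634 and NEJ677 had 1 cell each with at least 10 UMIs. The cut of 10 UMIs was not levelled for depth. In NEJ723 the 18 cells had a median of 14110.5 UMIs in total, against 4223 in the class. The single cells of NEJ634 and NEJ677 had 33117 and 33626 UMIs in total, against class medians of 2205.5 and 2594.

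**Figure D5:**
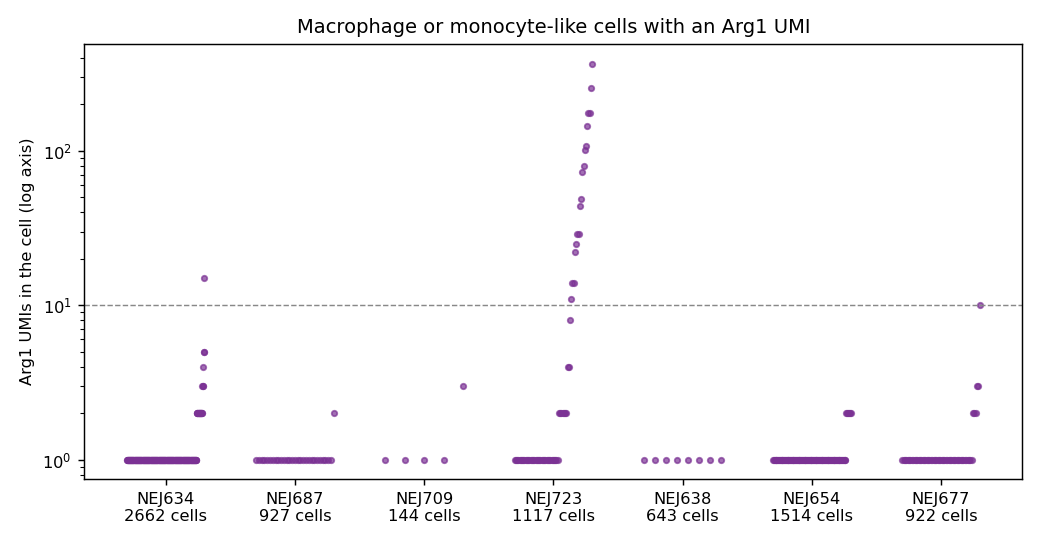
Arg1 UMIs (log axis) in each macrophage or monocyte-like cell that held at least 1, by library, with the number of cells of the class under each name. Position within a library has no meaning, and the dashed line marks 10 UMIs. Counts are not levelled for depth. Of the 20 cells on or above the line, 18 are of NEJ723.

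Arg2 had another home. In neutrophil or precursor-like cells it was at 79.3 to 471 CPM over the 7 libraries, with a median of 161 CPM, and in macrophage or monocyte-like cells at 8.75 to 66.7 CPM. In all 7 libraries the neutrophil value was the higher of the 2.

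Across 78 pools of at least 20 cells (67 of a library and named class, 7 of unnamed cells and the 4 left out above), the genes other than members whose level ran most like that of Cps1 were Maob, Uroc1, Slc10a1, Leap2 and Apoc4, with Pearson r of 0.945 to 0.933 on log2(CPM + 10). They were chosen from 5853 genes that reached 100 CPM in a pool. Among the members, Gls2 was most like Cps1 at 0.935 and Asl least at 0.839. The pools share libraries and depth, and the values describe these pools only.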

How the data were processed

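The deposited matrices hold raw UMI counts per gene and barcode of 7 libraries, which the authors made with Cell Ranger 6.0 according to the submitters' processing notes. The paper reports that its Cell Ranger run included intronic reads. The genome build is not given in the sources used here. Totals ran from 40214395 to 132485391 UMIs per library. Cells were called against the ambient profile of near-empty barcodes, kept above 500 UMIs where no more than 20% were mitochondrial, and relieved of the highest doublet scores at 0.8% per 1000 cells, which removed 8833 of 81365. The rest were clustered by Leiden (resolution 1) on 40 principal components without the 8 genes and the 38 listed genes. Clusters were named from fixed markers, and a class was used in a library only where at least 3 of its markers had over 3 UMIs. Levels are UMIs of the summed cells per 1000000 (CPM) with exact 95% Poisson intervals; 0 UMIs were set to 3 in ratios. The labels put no library in a group, so no test was run. All 8 genes are named. Of the 38, up to 4 per statement with the largest ratios among those past 2-fold in every pair are named, and Glul, Arg2 and Cad always; Prodh, Glud1, Got1, Got2, Ppat, Slc1a2, Slc1a5, Oat and Nos2 were named after their values were seen. Of the 38 genes, 1 enters the counts but is not reported here by name. Members and lists were chosen with earlier results of these data known. Alternatives covered calling, filters, doublets, clustering, gating, scaling, weighting, free RNA and shared barcodes. The steps were tested on simulated data. Python 3.11.15, NumPy 2.4.6, SciPy 1.17.1, pandas 2.3.3 and python-igraph 0.11.9 were used.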

Additional observations from a re-analysis of the deposited data

How the results depend on the processing

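Across the alternatives, members of NEJ634 or NEJ687 stood above one of NEJ638, NEJ654 and NEJ677 against NEJ677 only: with libraries clustered alone Ass1 of NEJ687 and, with overlapping intervals, Ass1 of NEJ634 (1630.5 against 1618 CPM) and Arg1 and Asl of NEJ687, with the marker gate Cps1 of both, and as a mean over cells Ass1 and Arg1 of NEJ687. With the gate, the Cps1 intervals of NEJ687 and NEJ677 overlapped as well. The log2 span of the summed level, 1.43, was 1.16 with cells called by the percentile rule alone, 1.40 with at most 10% mitochondrial UMIs, 1.30 without doublet removal, 1.14 at Leiden resolution 2, 1.75 as a mean over cells and 1.17 with the ambient profile subtracted. It was 3.81 with each library clustered alone, 3.82 so clustered without shared barcodes and 4.93 with the marker gate, which bring in NEJ709 and NEJ723; the last is NEJ638 over NEJ709, where the gate took 7974 of 13913 cells at 594 CPM of Alb. Shares in parentheses are those of all genes called in the same setting. For NEJ634 against NEJ654 (8 members at least 2-fold lower), the count was 5 without doublet removal (11.3%), 5 at resolution 2 (12.4%), 1 with libraries clustered alone (10.1%) and 5 so clustered without shared barcodes (12.5%). For NEJ634 against NEJ677 (5 members), it was 2 at resolution 2 (14.7%), 0 clustered alone (9.93%), 3 as a mean over cells (16.5%) and 2 with the ambient profile subtracted (16.9%). For NEJ687 against NEJ654 (5 members) it was 2 clustered alone (13.4%), 1 with the gate (15.2%) and 3 as a mean over cells (20.6%), and against NEJ677 (3 members) 0 clustered alone (13.8%) and 1 with the gate (13.1%). With the gate 1 of 8 members is thus no more than the share of all genes. At 4-fold in place of 2-fold, 2 members passed against NEJ638 for both NEJ634 (6.32%) and NEJ687 (8.71%), and 0 against NEJ654 and NEJ677, where 5.64% to 8.52% of all genes did. Values above T/NK-like cells in other classes, 26 of 440, were 9 of 272 by the percentile rule (21.3%), 46 of 464 without doublet removal (21.8%), 10 of 432 with the gate (20.5%), 55 of 440 as a mean over cells (20.1%) and 15 of 440 with the ambient profile subtracted (22.2%). Here too the member values were not held to the 10 CPM cut of the shares. The periportal log2 ratio of NEJ677, 0.86, was 0.61 by the percentile rule, 0.54 clustered alone, 0.60 without shared barcodes as well and 0.75 with the gate; that of NEJ654, 0.39, was 0.45 without doublet removal and 0.67 with the gate. Apart from the change of cells in each, the cause was not tested. Without doublet removal NEJ687 held under 20 cells of the class. No paired analysis was possible because the labels give no replicate numbers or groups.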
